A study of Homo sapiens with 24 samples.

Results

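A set of 10 genes that govern the passage from G1 into S phase were read out across all 8 treatment groups of a HepG2 RNA-seq series. They were taken by symbol from the gene count files, and all 10 were found among the 26475 genes listed: the D-type cyclins CCND1, CCND2 and CCND3, the E-type cyclins CCNE1 and CCNE2, the kinases CDK4 and CDK6, the inhibitors CDKN1A and CDKN1B, and the transcription factor E2F1. HepG2 is an established human liver cancer cell line. The cells received the solvent DMSO, 50 nM of ABBV-075, or 50 or 500 nM of ABBV-744. Another 4 groups received IFNγ, alone or with each of those inhibitor doses, which gave 24 libraries in 8 groups of 3. ABBV-075 is a pan-BET inhibitor, which binds both bromodomains of the BET proteins, and ABBV-744 is selective for the second bromodomain. The study's methods give 12 h for ABBV-075, whereas a time for ABBV-744 and a dose and time for IFNγ are not given in the sources used here. Experimental triplicates are described for the DMSO and ABBV-075 libraries, and how the 3 libraries of the other groups were obtained is not given in the sources used here, so the p-values measure the spread among 3 libraries of the one line, which may be technical.

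A D-type cyclin binds CDK4 or CDK6 in early G1, and the active kinase begins to phosphorylate the retinoblastoma protein. That phosphorylation releases E2F1, which transcribes the genes of DNA replication along with CCNE1, CCNE2 and its own gene. Cyclin E then activates CDK2 and completes the step. CDKN1A (p21), a classical target of p53, and CDKN1B (p27) hold cyclin E-CDK2 in check. In liver, CCND1 is the cyclin best known for driving hepatocytes into the cycle after loss of tissue, and CDKN1A for holding them back. BET proteins read acetylated histones at active promoters and enhancers, and their inhibitors are known to lower the transcription of growth genes in many tumour lines.

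The promoters of 3 members are shown because CDK4 and CDKN1A are the members whose fall with ABBV-075 passed the test whichever library was left out, and E2F1 is the member that encodes a factor for one of the searched motifs. Each sequence is the 250 bases before the RefSeq start (GRCh38.p14), read 5′ to 3′ on the gene's strand. Capitals mark the E2F motifs in E2F1, the E-box CACGTG in CDK4 and the GC box GGGCGG in CDKN1A.
E2F1, chr20:33686386-33686635, minus strand: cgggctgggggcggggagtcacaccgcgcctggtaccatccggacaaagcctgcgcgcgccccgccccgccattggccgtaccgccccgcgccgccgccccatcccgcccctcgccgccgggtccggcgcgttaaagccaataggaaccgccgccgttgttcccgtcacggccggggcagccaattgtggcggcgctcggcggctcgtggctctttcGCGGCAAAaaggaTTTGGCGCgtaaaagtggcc
CDK4, chr12:57752311-57752560, minus strand: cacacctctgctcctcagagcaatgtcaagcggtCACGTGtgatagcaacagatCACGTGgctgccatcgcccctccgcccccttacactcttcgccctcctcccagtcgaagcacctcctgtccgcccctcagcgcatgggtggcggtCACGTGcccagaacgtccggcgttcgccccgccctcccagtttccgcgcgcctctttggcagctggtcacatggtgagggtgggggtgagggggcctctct
CDKN1A, chr6:36678464-36678713, plus strand: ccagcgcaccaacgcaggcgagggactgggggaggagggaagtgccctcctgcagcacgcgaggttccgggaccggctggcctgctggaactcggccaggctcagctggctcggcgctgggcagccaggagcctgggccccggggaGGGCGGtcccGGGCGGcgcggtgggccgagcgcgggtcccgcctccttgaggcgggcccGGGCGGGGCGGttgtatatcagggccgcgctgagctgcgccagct

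The E2F1 window held GCGGCAAA, the reverse complement of TTTGCCGC, with its first base at −33 from the start, and TTTGGCGC at −20. Any of the 4 E2F motifs searched (TTTCCCGC, TTTCGCGC, TTTGCCGC and TTTGGCGC, both strands) occurred in 2.79% of the 35116 RefSeq promoter windows of the same length. The CDK4 window held 3 copies of CACGTG, the E-box read by MYC with its partner MAX, and 6.34% of all windows held at least 1. CDKN1A had 4 copies of GGGCGG, a motif read by Sp1-family factors, of which the last pair shares a base. At least 1 GGGCGG stood in 42.64% of all windows, so its presence is common. RefSeq windows were matched for 7 of the 10 members, namely CCND3, CCNE1, CDK4, CDK6, CDKN1A, CDKN1B and E2F1. None of these windows held TATAAA, the TATA box (10.72% of all windows), and the only E2F and E-box letters were those shown. The CDK4 and CDKN1A windows lie inside the GENCODE spans given here, which begin at start sites farther upstream.

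Between 2978982 and 4304103 reads per library fell on genes (median 3462418.5), which was 12% to 16.8% of the reads in a file. Multimapping reads made up 56.0% to 69.4% of a file, and 56.0%, 64.4% and 67.4% in ABBV-075 replicates 1, 2 and 3. HEXIM1, a gene known to rise with BET inhibition, stood at 50.5 to 56.7 CPM (counts scaled to 1000000 reads on genes) in DMSO and 137 to 152 with ABBV-075, while IRF1, an immediate IFNγ target, stood at 10.9 to 13.6 in DMSO and 209 to 252 with IFNγ. HEXIM1 was at 60.2 to 67.9 CPM with ABBV-744 at 50 nM and 84.1 to 93.7 at 500 nM. With IFNγ alone it was at 44.7 to 49.2 CPM, and at 128 to 140 with ABBV-075 added. ABBV-744 added to IFNγ gave 38.6 to 55.3 CPM at 50 nM, which overlaps IFNγ alone, and 69.3 to 73.1 at 500 nM. The 8 liver markers checked were present in every library, PTPRC and CD3E had no read in any, PECAM1 and COL1A1 had at most 5 and 2 reads, and CD68 and ACTA2 ran from 25 to 86 and from 27 to 84 reads. Libraries also differed in how levels depended on the base composition of the genes. The mean log2 level of the genes with at most 40.5% GC in their transcript, minus that of genes with at least 58.1%, averaged −0.213 in DMSO, 0.325 with ABBV-075, −0.766 and −0.516 with ABBV-744 at 50 and 500 nM, −0.382 with IFNγ, and 0.356, 0.722 and 0.473 in the IFNγ groups with ABBV-075 and with 50 and 500 nM ABBV-744. Because this measure moved with the treatments, a bias of the libraries and an effect of treatment on low-GC or high-GC genes cannot be told apart. The correction used removes either one. The calls below are also given after this correction, which takes out, library by library, the smooth trend of level on transcript GC (written "with the GC correction"). Reads on no annotated feature were 14.8% to 17.3% with 50 nM ABBV-744 and 22.8% to 24.1% with IFNγ added. ABBV-075 replicate 3 stood apart from its group in the base-composition measure, at −0.207 beside 0.768 and 0.415 in replicates 1 and 2. Its reads on no feature were 16.8%, beside 25.3% and 19.7%.

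Levels in DMSO are compared between genes per kilobase of the MANE Select transcript. CDK4 was the highest, at 150.0 ± 8.46 CPM per kb (SD, n = 3), followed by CCND1 at 55.4 ± 4.53. Then came CDKN1A at 41.3 ± 2.79, E2F1 at 31.1 ± 1.42, CDK6 at 25.6 ± 2.95 and CCNE1 at 21.4 ± 2.59. CCND3 (7.91 ± 1.39), CDKN1B (5.28 ± 1.27) and CCNE2 (2.35 ± 0.413) were low. The ranges of CDK6 and CCNE1 over the 3 DMSO libraries overlapped, and those of no other neighbours in this order did. By RNA per kilobase, CCND1 (chr11:69641156-69654474, 5 exons) was the highest D-type cyclin, CDK4 (chr12:57747727-57756013, 8 exons) the higher of its kinase partners, and CCNE1 (chr19:29811991-29824312, 12 exons) the higher E-type cyclin. The CDK6 value rests on a transcript of 11663 bases in 8 exons (chr7:92604921-92836573), and shorter isoforms would give it a higher level per kilobase.

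CCND2 (chr12:4269771-4305353) was close to silent. Its libraries held 0 to 6 reads each and 47 reads in all 24, against 18409 for CCND1 and 1715 for CCND3. The DMSO libraries had 5, 3 and 4 reads, the ABBV-075 libraries 0, 2 and 1, and IFNγ with 500 nM ABBV-744 had 6, 2 and 1. With 3 reads per library as the floor, most libraries were at or under it, so CCND2 passed the filter on low counts in no comparison and no fold is given. Of its reads, 18.97% of those on either strand lay on the other strand. The other 9 members were tested in every comparison.

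**Figure D1:**
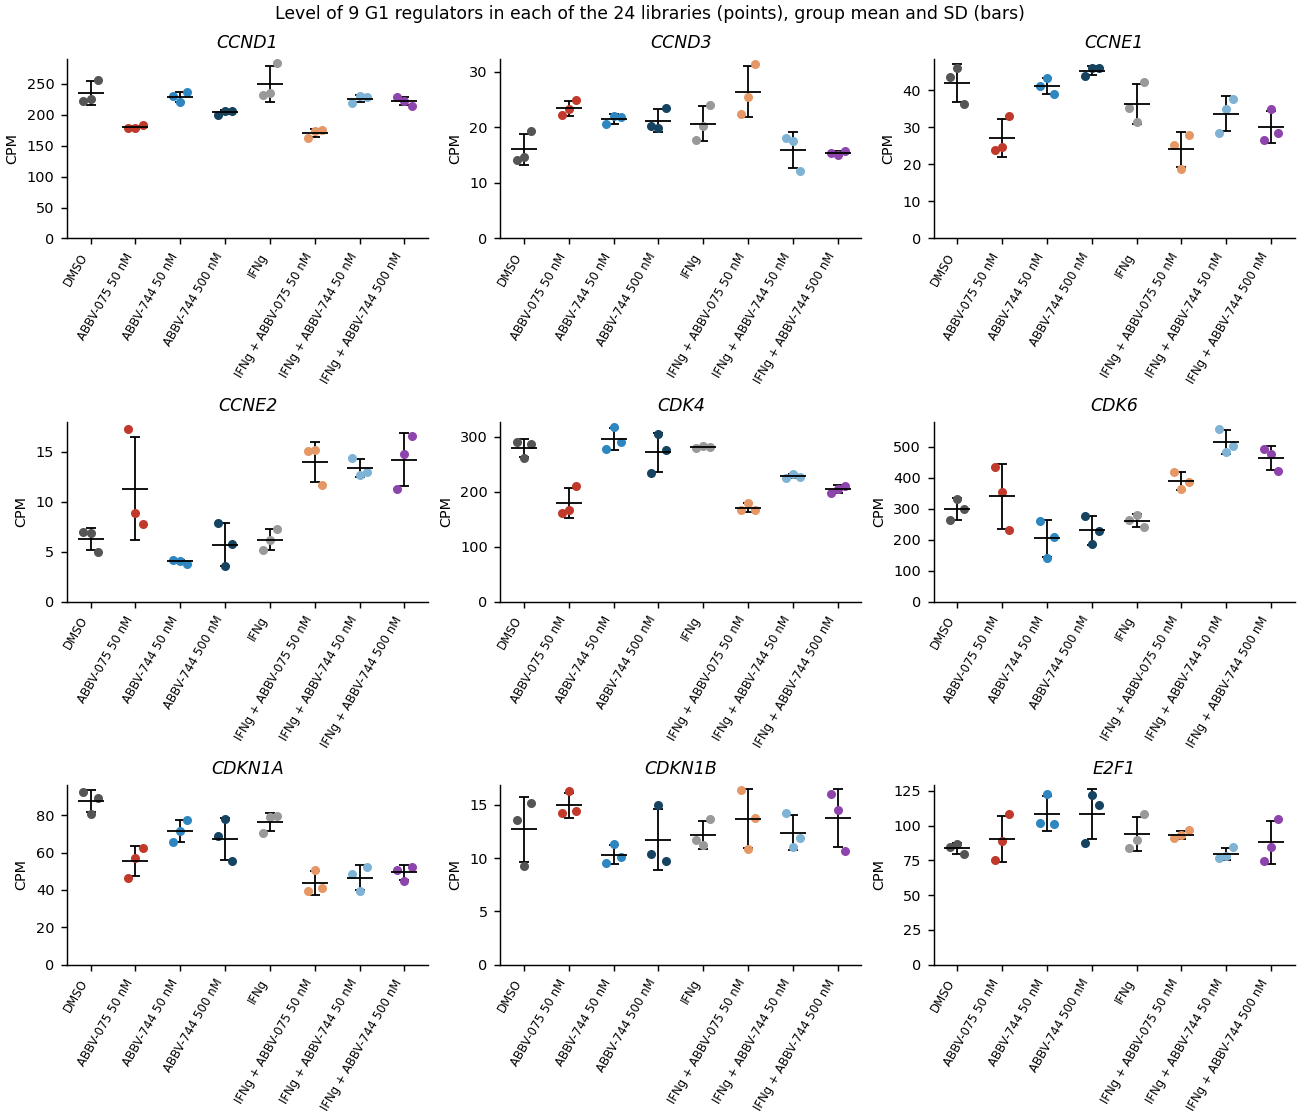
Level of 9 members in CPM (vertical axes, linear from 0) in the 8 treatment groups (horizontal axes). Points are libraries, and the black bars are the group mean and SD (n = 3). CDK6 spans 142 to 559 CPM and CCNE2 3.52 to 17.3 CPM, the widest relative ranges of the 9, while E2F1 stays between 74.4 and 123 CPM.

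ABBV-075 alone lowered the main D-type cyclin, its kinase partner CDK4, the main E-type cyclin and p21, while the other kinase partner, CDK6, did not pass the test. Relative to DMSO, 6 of the 9 tested members changed at an adjusted p of at most 0.05, where 39.3% of all genes tested did so. The 4 that fell stand beside 19.6% of genes lower, and the 2 that rose beside 19.8% higher. No member passed the study's own threshold, which also asks for a log2 change of 1.5 or more in size and was passed by 4.28% of genes. The median over the 9 was 0.09, beside 0.03 over all genes.

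CCND1 was at 223, 225 and 257 CPM in DMSO and at 179, 178 and 183 CPM with ABBV-075, without overlap. Its log2 fold change was −0.41 ± 0.11 (SE; adjusted p = 0.0111), and −0.27 with the GC correction (adjusted p = 0.0191). CDK4, a catalytic partner of cyclin D, fell from 290, 261 and 287 CPM to 161, 167 and 210. The highest treated library was still below the lowest control library, and the change was −0.66 ± 0.13 (adjusted p = 0.00166; −0.52 with the GC correction, adjusted p = 0.000141). Cyclin E1 showed the same separation. CCNE1 was at 43.6, 45.9 and 36.2 CPM in DMSO and 23.8, 24.6 and 33.0 with ABBV-075, a log2 change of −0.65 ± 0.17 (adjusted p = 0.0105; −0.51 with the GC correction, adjusted p = 0.00636). By edgeR, CCND1 did not pass without DMSO replicate 3 or ABBV-075 replicate 2 (adjusted p = 0.0823 and 0.0509). Nor did CCNE1 pass by edgeR without DMSO replicate 2 or ABBV-075 replicate 2 (adjusted p = 0.0546 and 0.0615).

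CDKN1A (chr6:36676460-36687337, 3 exons), which encodes a kinase inhibitor, went down as well. Its libraries held 92.3, 80.9 and 89.2 CPM in DMSO and 46.5, 57.3 and 62.4 with ABBV-075, with a log2 change of −0.68 ± 0.14 (adjusted p = 0.00279) that was −0.52 with the GC correction (adjusted p = 0.000623). CDKN1B (chr12:12685498-12722369) did not pass the test: it was at 13.6, 9.3 and 15.2 CPM in DMSO and 14.2, 16.3 and 14.4 with ABBV-075. The 95% interval of its log2 change ran from −0.25 to 0.68, and its corrected value was 0.24 (adjusted p = 0.365).

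Both members that rose are minor forms in these cells. CCND3 (chr6:41934934-42050357) went from 14.2, 14.6 and 19.3 CPM to 22.2, 23.2 and 24.9 (0.52 ± 0.18, adjusted p = 0.0364), and the GC correction left it at 0.67 (adjusted p = 0.00346). The rise of CCND3 did not pass by DESeq2 (adjusted p = 0.0975). By edgeR it did not pass without DMSO replicate 1, DMSO replicate 2 or ABBV-075 replicate 2 (adjusted p = 0.133, 0.135 and 0.0887). CCNE2 was at 6.95, 6.87 and 5.0 CPM in DMSO and at 17.3, 8.88 and 7.81 with ABBV-075, so 1 treated library lay far above the other two. Its change of 0.86 ± 0.31 (adjusted p = 0.0448) was 0.4 without ABBV-075 replicate 1 (adjusted p = 0.307) and 0.26 with the GC correction (adjusted p = 0.404). With 34.6% GC, its transcript has the lowest GC content of the members. Of the CCNE2 reads on either strand, 13.1% lay on the other strand, and the counts used leave these out.

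CDK6 and E2F1 did not pass. CDK6 varied widely with ABBV-075, at 436, 353 and 230 CPM beside 264, 333 and 300 in DMSO (0.16 ± 0.18, adjusted p = 0.514). With the GC correction its sign was the opposite, at −0.19 (adjusted p = 0.121), and without ABBV-075 replicate 3 it was 0.37 (adjusted p = 0.00453). E2F1 (chr20:33675477-33686385) was at 84.3, 87.1 and 79.5 CPM in DMSO and 74.9, 88.6 and 108 with the inhibitor, and the 95% interval of its change ran from −0.23 to 0.4 (corrected value 0.21, adjusted p = 0.0913). With the GC correction, 5 members changed, CCND3 upward and CCND1, CCNE1, CDK4 and CDKN1A downward, where 45.1% of genes did. The count of 6 was 2 without ABBV-075 replicate 2 (CDK4 and CDKN1A), 3 without DMSO replicate 2, and 4 by DESeq2, which called 3620 of 12941 genes. For fits that left out a library, here and below, the share of all genes called was not recorded.

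**Figure D2:**
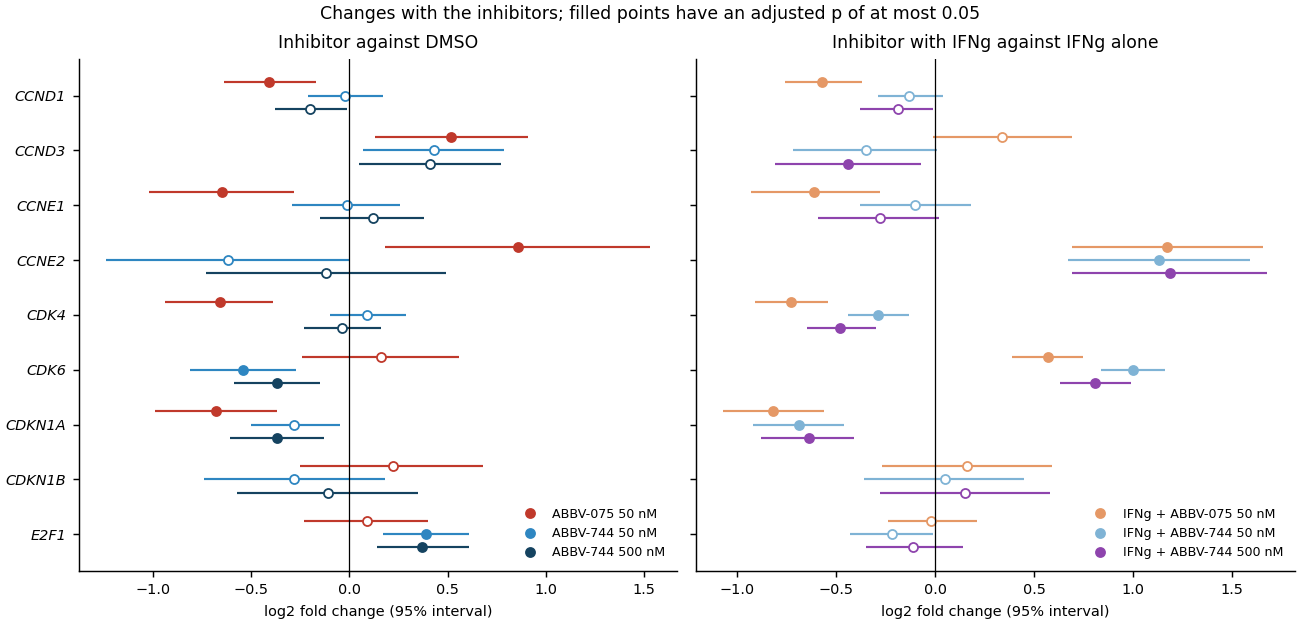
Log2 fold change of 9 members (horizontal axis) with its 95% interval, for each inhibitor against DMSO (left) and for each inhibitor with IFNγ against IFNγ alone (right). Filled points have an adjusted p of at most 0.05. CCND1, CCNE1, CDK4 and CDKN1A lie to the left for ABBV-075 in both panels, and CDK6 lies left of 0 for both doses of ABBV-744 without IFNγ and right of 0 with it.

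ABBV-744 without IFNγ changed few members, and at 50 nM their number was close to the share of all genes. At 50 nM, CDK6 fell and E2F1 rose, 2 of 9 members where 18.9% of all genes changed (10.1% lower and 8.81% higher). CDK6 was at 260, 142 and 210 CPM, below the 264 to 333 CPM of DMSO (−0.54 ± 0.13, adjusted p = 0.00584; −0.27 with the GC correction, adjusted p = 0.0415). E2F1 was at 102, 123 and 101 CPM, above every DMSO library (0.39 ± 0.11, adjusted p = 0.0148), but its change was 0.15 with the GC correction (adjusted p = 0.295). E2F1 has the most GC-rich transcript of the members, at 61.6%. CDKN1A, at 65.5, 71.5 and 77.7 CPM, lay below every DMSO library with a log2 change of −0.28 ± 0.11 (adjusted p = 0.0791), and with the GC correction it was −0.47 (adjusted p = 0.000964). CCND3 and CCNE2 also lay outside the DMSO range, higher and lower, with changes of 0.43 ± 0.18 and −0.62 ± 0.3 (adjusted p = 0.0869 and 0.146), or 0.21 and −0.2 with the correction (adjusted p = 0.47 and 0.742). The corrected count was also 2, CDK6 and CDKN1A, both lower, where 11.2% of genes changed.

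At 500 nM, CDK6, CDKN1A and E2F1 changed, 3 of 9 members where 15.3% of genes did (7.8% lower and 7.48% higher). CDK6 was at 277, 185 and 229 CPM, overlapping DMSO in 1 library (−0.37 ± 0.11, adjusted p = 0.0188; −0.22 with the GC correction, adjusted p = 0.0325). CDKN1A fell to 68.8, 78.0 and 55.4 CPM (−0.37 ± 0.12, adjusted p = 0.0296; −0.5 with the GC correction, adjusted p = 0.000345). E2F1, at 87.6, 122 and 115 CPM, rose by 0.37 ± 0.11 (adjusted p = 0.0222; 0.23 with the GC correction, adjusted p = 0.0739). CCND1 was at 200, 206 and 206 CPM, below every DMSO library (−0.2 ± 0.09, adjusted p = 0.138), and changed by −0.26 with the GC correction (adjusted p = 0.00975). That correction left 3 members changed, all lower (CCND1, CDK6 and CDKN1A), where 18% of genes did.

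These comparisons share their DMSO libraries with each other and with that of ABBV-075. Without DMSO replicate 2 no member changed at either dose. At 50 nM, 1 remained without DMSO replicate 3 or without ABBV-744 replicate 3. At 500 nM, none remained without DMSO replicate 3 or without ABBV-744 replicate 3, and 1 without DMSO replicate 1. CDK4 and CCNE1, both lower with ABBV-075, had log2 changes of 0.09 and −0.01 at 50 nM and −0.04 and 0.12 at 500 nM. Their 95% intervals were −0.1 to 0.29 and −0.29 to 0.26 at 50 nM, and −0.23 to 0.16 and −0.15 to 0.38 at 500 nM.

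IFNγ alone changed 0 of the 9 members by edgeR's quasi-likelihood test, where 3.46% of genes changed. At an unadjusted p of at most 0.05 there were 2, CCND3 (log2 change 0.36) and CDK6 (−0.2), and DESeq2 also called 0 members (276 of 13952 genes). CDKN1A, an interferon-responsive gene in some cells, was at 70.8, 78.9 and 79.6 CPM with IFNγ, below every DMSO library (−0.2 ± 0.1, adjusted p = 0.363; −0.27 with the GC correction, adjusted p = 0.0532). CDK4 was at 279, 283 and 281 CPM, and the 95% interval of its log2 change ran from −0.14 to 0.16. The interval of CCND1 ran from −0.08 to 0.26 and that of E2F1 from −0.04 to 0.37.

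In cells that also received IFNγ, ABBV-075 lowered the same 4 members by name, CCND1, CCNE1, CDK4 and CDKN1A, and raised CCNE2 and CDK6. That is 6 of 9 members, where 56.6% of genes changed relative to IFNγ alone (28.4% lower and 28.2% higher). The 3 comparisons with IFNγ share the IFNγ libraries. CCND1 stood at 163, 173 and 175 CPM beside 232, 235 and 284 with IFNγ (−0.57 ± 0.09, adjusted p = 3.71e-06), and CDK4 at 167, 180 and 166 beside 279, 283 and 281 (−0.73 ± 0.09, adjusted p = 9.07e-09). CDKN1A fell to 39.2, 50.8 and 40.9 CPM from 70.8, 78.9 and 79.6 (−0.82 ± 0.12, adjusted p = 6.88e-07). CCNE1 was at 25.3, 18.7 and 28.0 CPM beside 35.1, 31.5 and 42.1 (−0.61 ± 0.16, adjusted p = 0.00144). No treated library of these 4 genes reached the lowest IFNγ library.

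The 2 increases did not pass with the GC correction. CCNE2 went from 5.17, 6.19 and 7.26 CPM to 15.1, 15.2 and 11.7 (1.17 ± 0.24, adjusted p = 7e-05), and CDK6 from 264, 280 and 240 to 420, 364 and 385 (0.57 ± 0.09, adjusted p = 8.89e-07). Corrected, they were 0.3 (adjusted p = 0.291) and 0.1 (adjusted p = 0.173), while the 4 decreases were −0.31 for CCND1, −0.33 for CCNE1, −0.45 for CDK4 and −0.57 for CDKN1A (adjusted p = 0.000439, 0.0422, 2.71e-07 and 9.73e-06). CCND3, at 22.3, 25.5 and 31.3 CPM beside 17.7, 20.3 and 24, had a change of 0.34 ± 0.17 (adjusted p = 0.0951) and of 0.52 with the GC correction (adjusted p = 0.00278). That made 5 members changed, where 55.3% of genes were.

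ABBV-744 at 50 nM with IFNγ raised CCNE2 and CDK6 and lowered CDK4 and CDKN1A, 4 of 9 members where 51.7% of genes changed (27.4% higher and 24.3% lower). CDK6 reached its highest level of the series, at 559, 484 and 504 CPM beside 264, 280 and 240 with IFNγ alone (1.0 ± 0.08, adjusted p = 4.21e-12), and with the GC correction the change was 0.37 (adjusted p = 5.36e-05). CDKN1A was at 48.4, 39.2 and 52.4 CPM (−0.69 ± 0.11, adjusted p = 6.06e-06; −0.34 with the GC correction, adjusted p = 0.00984). CCNE2, at 14.4, 12.7 and 13.0 CPM, changed by 1.13 ± 0.23 (adjusted p = 9.53e-05) and by 0.03 with the GC correction (adjusted p = 0.944). CDK4, at 225, 232 and 226 CPM, changed by −0.29 ± 0.08 (adjusted p = 0.00221) and by −0.02 with the GC correction (adjusted p = 0.821). CCND1, which fell with ABBV-075, was at 219, 230 and 229 CPM (−0.13 ± 0.08, adjusted p = 0.203). Hence 2 members were called after correction, CDK6 and CDKN1A, where 33.5% of genes were. Without IFNγ replicate 1, 6 members passed, with CCND3 and E2F1 added as lower.

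At 500 nM with IFNγ, 5 of 9 members changed where 45.7% of genes did, 2 higher (22.9% of genes) and 3 lower (22.8%). CDK6 was at 493, 477 and 421 CPM (0.81 ± 0.09, adjusted p = 7.68e-09; 0.29 with the GC correction, adjusted p = 0.000623), and CDK4 fell to 197, 205 and 211 CPM (−0.48 ± 0.09, adjusted p = 4.27e-05; −0.22, adjusted p = 0.00859, with the correction). CDKN1A fell to 50.9, 45.0 and 52.5 CPM (−0.64 ± 0.12, adjusted p = 3.51e-05; −0.38, adjusted p = 0.00278, with the correction). CCNE2 was at 11.3, 14.8 and 16.6 CPM (1.19 ± 0.24, adjusted p = 0.000183), or 0.25 with the correction (adjusted p = 0.489). CCND3, at 15.3, 15.1 and 15.7 CPM, was just past the threshold (−0.44 ± 0.18, adjusted p = 0.0469) and was not past it in 5 of the 6 fits that left out a library. The correction left CDK6, CDK4 and CDKN1A, where 36.5% of genes were called.

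**Figure D3:**
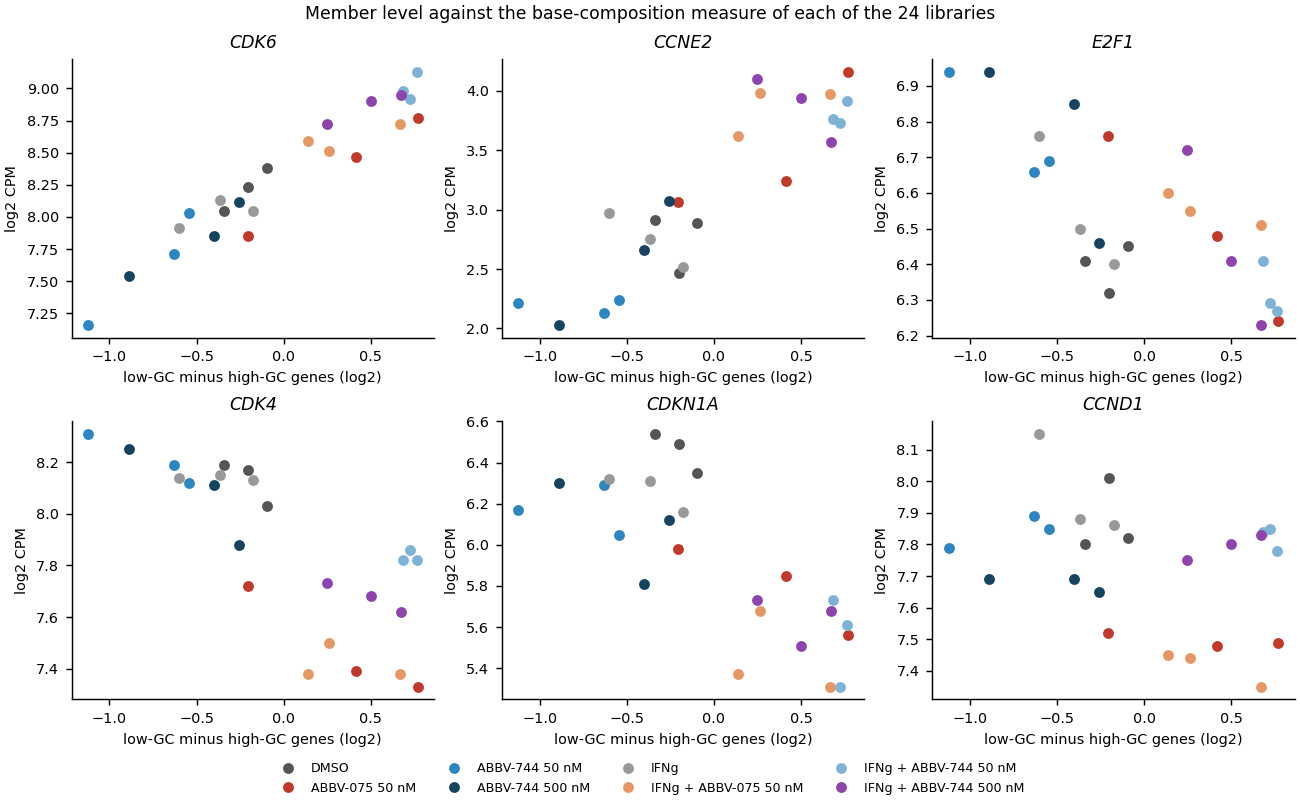
Log2 CPM of 6 members (vertical axes) against the base-composition measure of each library, the mean log2 level of low-GC genes minus that of high-GC genes (horizontal axes), with 1 point per library coloured by group. CDK6 and CCNE2 lie along the measure across all groups, while CCND1 is at 163 to 183 CPM in the 6 libraries with ABBV-075 and at 200 CPM or more in all others.

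Whether an inhibitor acted differently with IFNγ was tested as the difference between its log2 fold change with and without IFNγ. For ABBV-075 this difference passed for 0 of 9 members by edgeR, for 0 at an unadjusted p of at most 0.05 and for 0 by DESeq2, where 0.0347% of genes passed. Its 95% intervals were −0.39 to 0.23 for CDK4, −0.48 to 0.12 for CCND1 and −0.55 to 0.25 for CDKN1A. For ABBV-744 at 50 nM, 6 members differed where 51.6% of genes did (25% positive, 26.5% negative), and for 500 nM 5 members where 33.5% did (18.5% positive, 15% negative). At 50 nM, 2 of them, CCNE2 and CDK6, were past 1.5 on the log2 scale, as were 6.44% of genes. CDK6, which fell without IFNγ and rose with it, had differences of 1.51 ± 0.18 (adjusted p = 7.86e-08) and 1.2 ± 0.15 (adjusted p = 3.64e-07). It also passed with the GC correction at both doses, at 0.59 (adjusted p = 0.000205) and 0.53 (adjusted p = 0.000133).

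CCNE2 differed by 1.72 ± 0.36 (adjusted p = 0.000212) at 50 nM and 1.32 ± 0.39 (adjusted p = 0.00851) at 500 nM, but by 0.18 at both doses with the GC correction (adjusted p = 0.802 and 0.815). E2F1 differed by −0.64 ± 0.15 (adjusted p = 0.000816) and −0.46 ± 0.18 (adjusted p = 0.041), or −0.1 and −0.14 with the correction (adjusted p = 0.625 and 0.543). CCND3 and CDK4 differed by −0.81 and −0.41 at 50 nM and by −0.83 and −0.42 at 500 nM, and neither passed with the correction. For CDKN1A at 50 nM the difference of −0.44 ± 0.16 (adjusted p = 0.0218) became 0.07 (adjusted p = 0.781). The median difference over all genes, before correction, was −0.144 at 50 nM and −0.088 at 500 nM. Scaled by library size only, it was 0.043 at 50 nM, and CCND3, CDK4 and CDKN1A did not pass by edgeR there (adjusted p = 0.0529, 0.0771 and 0.193). After correction, 1 member differed at 50 nM (21.6% of genes) and 2 at 500 nM (16.7%), CDK6 and CCND1, the latter at 0.29 (adjusted p = 0.0481) from 0.03 before. Without DMSO replicate 2 the 500 nM count was 3, CCND3, CCNE2 and CDK6.

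**Figure D4:**
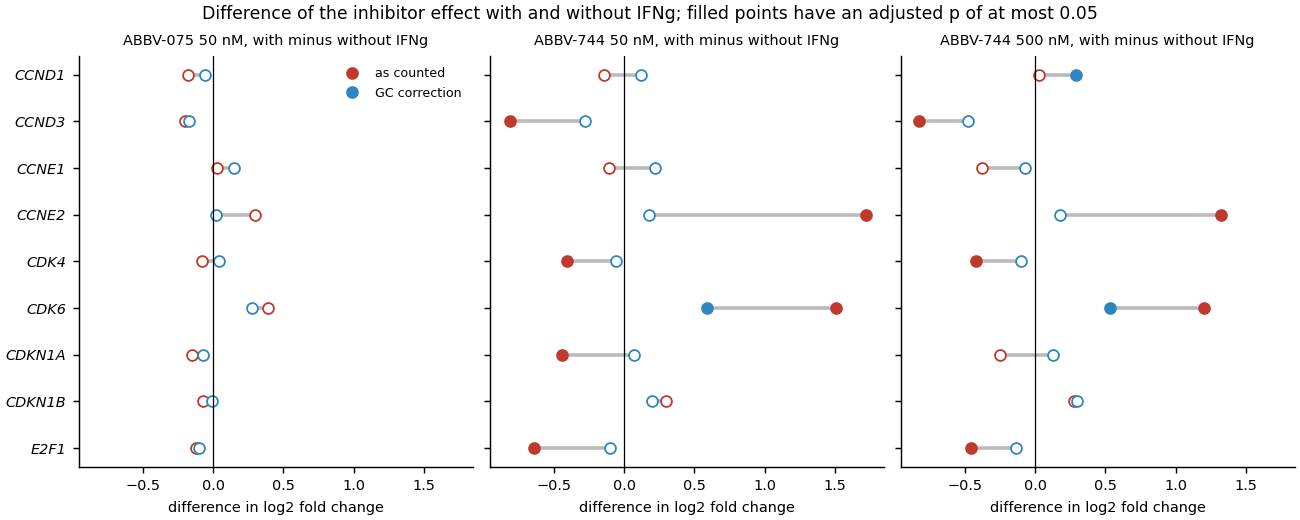
Difference of each inhibitor's log2 fold change with IFNγ minus that without it (horizontal axis) for 9 members, from the counts as deposited (red) and with the GC correction (blue). Filled points have an adjusted p of at most 0.05. For ABBV-744 most red points move toward 0 after correction, and CDK6 is the member filled in both colours at both doses.

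Set side by side at 50 nM, ABBV-075 and ABBV-744 differed in 5 of 9 members, where 40.8% of genes differed (19.4% lower and 21.4% higher with ABBV-075). A time for ABBV-744 is not given, so compound and time cannot be told apart here. CDK4 was lower with ABBV-075 by −0.73 ± 0.13 (adjusted p = 0.0028; −0.5 with the GC correction, adjusted p = 0.000892), and CCNE1 by −0.61 ± 0.17 (adjusted p = 0.016; −0.39, adjusted p = 0.0351, with the correction). CCND1 was lower by −0.36 ± 0.11 (adjusted p = 0.0211; −0.18, adjusted p = 0.129). CCNE2 was higher by 1.5 ± 0.35 (adjusted p = 0.00809), a rounded value that equals the study's fold threshold, which 3.83% of genes passed unrounded. CDK6 was higher by 0.73 ± 0.24 (adjusted p = 0.0354). Both CCNE2 and CDK6 lost the call with the correction, at 0.45 (adjusted p = 0.239) and 0.08 (adjusted p = 0.65). After it, CCND3 (0.46, adjusted p = 0.0269), CCNE1 and CDK4 differed, where 33.8% of genes did. CDKN1B was at 14.2, 16.3 and 14.4 CPM with ABBV-075 and 9.52, 11.3 and 10.1 with ABBV-744 (0.53 ± 0.2, adjusted p = 0.0534), and it passed in no comparison, although it was called in this one with RLE scaling, with library size only, with a minimum of 10 counts in each library and with all 24 libraries in the fit. For CDKN1A the 95% interval was −0.72 to −0.05 (adjusted p = 0.0649), and −0.05 was its corrected value (adjusted p = 0.755). The count of 5 was 2 without ABBV-075 replicate 2 or without ABBV-744 replicate 2, and 3 without ABBV-075 replicate 1 or without ABBV-744 replicate 3.

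With IFNγ present, the 2 compounds at 50 nM differed in 6 members, where 33.7% of genes differed (17% lower and 16.7% higher). Relative to IFNγ with ABBV-744, IFNγ with ABBV-075 had lower CCND1 (−0.36 ± 0.08, adjusted p = 0.00079), CCNE1 (−0.44 ± 0.15, adjusted p = 0.024), CDK4 (−0.36 ± 0.08, adjusted p = 0.000701) and CDK6 (−0.36 ± 0.08, adjusted p = 0.000505). CCND3 was higher by 0.76 ± 0.18 (adjusted p = 0.000639), at 22.3, 25.5 and 31.3 CPM against 18.0, 17.5 and 12.1, and E2F1 by 0.28 ± 0.1 (adjusted p = 0.0257). These groups were closer in base composition, and 5 of the 6 calls were also made with the GC correction (34.4% of genes), all but E2F1 (0.03, adjusted p = 0.802). Without IFNγ + ABBV-075 replicate 2, or without IFNγ + ABBV-744 replicate 2, 4 passed.

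The 2 doses of ABBV-744 differed in 0 members without IFNγ, where 0.0274% of genes differed, and in 0 with IFNγ, where 1.7% did. With the replicate number as a block, 320 genes differed between the doses without IFNγ, in place of 3. In both comparisons 0 members had an unadjusted p of at most 0.05, and DESeq2 called 0. The 95% intervals without IFNγ were −0.16 to 0.51 for CDK6, −0.38 to 0.2 for CDKN1A and −0.29 to 0.26 for E2F1, and with IFNγ −0.28 to 0.03, −0.13 to 0.35 and −0.05 to 0.4.

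A list of 31 further G1/S regulators (pocket proteins, other E2F and DP factors, CDK2, INK4 inhibitors, the SCF-SKP2 ligase and the CDK-activating kinase) had 29 members tested. With ABBV-075, 5 were higher and 6 lower than in DMSO, where 39.3% of all genes changed, and their median of 0.03 equalled that of all genes. The count is close to the share of all genes, and with the GC correction it was 3 higher and 6 lower (45.1% of genes). CDKN2D (p19), an INK4 inhibitor of CDK4 and CDK6, rose from 3.57 ± 1.07 to 9.6 ± 1.59 CPM (SD, n = 3), by 1.37 ± 0.28 on the log2 scale (adjusted p = 0.00267; 1.51 with the GC correction, adjusted p = 0.000351). CKS2, a small subunit of cyclin-dependent kinases, rose from 115 ± 3.43 to 219 ± 25.8 CPM (0.91 ± 0.12, adjusted p = 0.000137; 0.7 with the correction, adjusted p = 4.79e-05). With IFNγ, ABBV-075 gave 7 higher and 9 lower of 29 (56.6% of genes called), and the same counts with the correction (55.3%). ABBV-744 with IFNγ gave 8 higher and 5 lower at 50 nM (51.7% of genes) and 6 and 2 at 500 nM (45.7%). With the correction these were 1 higher and 3 lower (33.5% of genes), and 3 and 3 (36.5%). Without IFNγ it gave 1 higher and 4 lower at 50 nM (18.9% of genes) and 1 and 0 at 500 nM (15.3%). With the correction these were 4 and 0 (11.2% of genes), and 2 and 0 (18%). The counts at 50 nM are small and close to the shares of all genes. IFNγ alone changed 0 of 29 (3.46% of genes), or 1, higher, with the correction (514 of 11217 genes).

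E2F1 RNA and the replication genes that E2F factors are known to transcribe can be read from the same libraries. Of 24 E2F targets, all tested, 4 were higher and 4 lower with ABBV-075 (39.3% of genes called), with a median of 0.01 beside 0.03 over all genes, and 5 and 5 with the GC correction (45.1% of genes). MCM5 and MCM2, subunits of the replicative helicase, fell from 146 ± 2.72 to 69.5 ± 11.2 CPM (−1.09 ± 0.13, adjusted p = 9.4e-05) and from 165 ± 5.1 to 104 ± 15.4 CPM (−0.69 ± 0.13, adjusted p = 0.00138). Corrected, they changed by −0.92 and −0.53 (adjusted p = 1.64e-06 and 0.000161). The IFNγ groups gave 6 higher and 9 lower with ABBV-075 (56.6% of genes), 6 and 9 with 50 nM ABBV-744 (51.7%), and 4 and 7 with 500 nM (45.7%), with medians of −0.09, −0.11 and −0.1 beside 0.0, −0.02 and −0.03 over all genes. With the correction these counts were 5 and 7 (55.3% of genes), 2 and 9 (33.5%), and 3 and 7 (36.5%). There, MCM5 changed by −1.22, −0.79 and −0.66 (adjusted p = 1.47e-12, 5.98e-09 and 4.1e-06) and by −0.96, −0.44 and −0.39 with the GC correction. Without IFNγ, ABBV-744 gave 2 higher and 3 lower at 50 nM (18.9% of genes) and 3 and 0 at 500 nM (15.3%). With the correction these were 1 and 0 (11.2% of genes), and 4 and 1 (18%). IFNγ alone gave 1 higher and 0 lower (3.46% of genes), or 2 and 0 with the correction (514 of 11217 genes).

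CDKN1A is also a member of the p53 programme, and 22 other p53 targets were read beside it. With ABBV-075, 6 were higher and 8 lower (39.3% of genes called), with a median of −0.08 beside 0.03 over all genes, and 5 and 8 with the GC correction (45.1% of genes). The p53 targets with the largest changes were 2 that rose. TP53INP1, a stress-induced p53 partner, rose from 22.4 ± 2.88 to 67.6 ± 6.26 CPM (1.57 ± 0.15, adjusted p = 1.76e-05), and RRM2B, the p53-induced subunit of ribonucleotide reductase, from 20.8 ± 1.97 to 57.7 ± 22.0 CPM (1.45 ± 0.24, adjusted p = 0.000738). With the GC correction their changes were 1.22 and 0.88 (adjusted p = 4.08e-06 and 5.66e-05). With IFNγ the counts were 6 higher and 10 lower with ABBV-075 (56.6% of genes), 6 and 8 with 50 nM ABBV-744 (51.7%), and 5 and 7 with 500 nM (45.7%). The correction left 6 and 10 with ABBV-075 (55.3% of genes), but 2 and 8 (33.5%), and 1 and 9 (36.5%), with 50 and 500 nM ABBV-744. ABBV-744 alone gave 2 higher and 2 lower at 50 nM (18.9% of genes) and 1 and 5 at 500 nM (15.3%). With the correction these were 2 and 4 (11.2% of genes), and 4 and 5 (18%). IFNγ alone changed 0 of 22 (3.46% of genes), also with the correction (514 of 11217 genes). The E2F and regulator lists share CCNA2, MYBL2 and RBL1, and FBXW7 stands in both the regulator and p53 lists.

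The genes whose log2 CPM followed each member most closely over the 24 libraries, among 9376 genes, are given as a description, since the libraries share groups and base composition. CDK6 was followed by ZNF24 and CMPK1 (Pearson r = 0.99 each), with 37.5% and 37.9% GC beside 39.7% in CDK6, and CCNE2 by SNX4 (0.97) and VPS13A (0.96), with 38.4% and 36.8% GC. For CDK4 they were PSMB5 (0.98) and PHB2 (0.97), for CDKN1A UBE2C (0.94) and SLC39A7 (0.93), and for CCND1 SLC17A9 and PTCHD4 (0.92 each). PTCHD4 has 36.7% GC and SLC17A9 58.8%, whereas CCND1 has 50.3%. CCNE1 was closest to IFNGR2 (0.89) and SERPINA4 (0.88), E2F1 to RPS2 and CDK16 (0.88 each), and CCND3 to HCFC1R1 (0.85) and MARCKSL1 (0.84). CDKN1B had no close partner, with MXD1 at 0.67 and ZNF211 at 0.65.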

How the data were processed

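Total RNA of HepG2 cells was depleted of ribosomal RNA and sequenced as strand-specific libraries. Per the study's methods and the submitters' processing notes, the authors trimmed reads with Trimmomatic 0.33, aligned them to hg38 with STAR 2.7.1 and used DESeq2. The gene annotation behind the counts is not given in the sources used here. The deposited values are raw counts per gene, 1 file per library with 3 counts columns, of which the one for the gene's strand (column 4) was used. Rows that name no gene (multimapping, no feature, ambiguous, unmapped) made up 83.2% to 88.0% of a file and were left out.

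Counts were filtered (filterByExpr), scaled by TMM and tested in edgeR 4.0.16 (R 4.3.3) by the quasi-likelihood test, with only the groups compared in the fit. P-values were adjusted by Benjamini-Hochberg over all genes tested. A member was called changed at an adjusted p of at most 0.05. Intervals are 95%. CPM used TMM factors over all 24 libraries, and log2 CPM a prior count of 2. Lengths, GC and positions came from GENCODE v44 (GRCh38). The pipeline was tested on simulated counts with 200 changed genes. The members and lists were chosen with earlier results of these data known. Besides the members, each list's genes past adjusted p 0.05 and an absolute log2 change of 1.5 with ABBV-075 are named (its 2 largest called changes where fewer than 2 passed), and the 2 genes most like each member (mean log2 CPM 3 or more). Alternatives were DESeq2 1.42.0, RLE scaling, library size only, no filter, a minimum of 10 counts per library, a fit of all 24 libraries, the replicate number as a block, reads of both strands and each library left out. The GC correction (lowess, span 0.3, for the 92.7% of genes with a GC value), alone and with the block, was added after seeing the data. CPM are relative to the genes counted, so a shift in total RNA per cell cannot be seen.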

Additional observations from a re-analysis of the deposited data

Results flagged for a closer look

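The effect of ABBV-744 on several members differed with and without IFNγ by a test of that difference (edgeR interaction term, 3 libraries per group). At 50 nM the inhibitor's log2 fold change with IFNγ minus that without it was 1.72 for CCNE2, 1.51 for CDK6, −0.81 for CCND3, −0.64 for E2F1, −0.44 for CDKN1A and −0.41 for CDK4. At 500 nM it was 1.32 for CCNE2, 1.2 for CDK6, −0.83 for CCND3, −0.46 for E2F1 and −0.42 for CDK4. At these doses 51.6% and 33.5% of all genes tested differed as well. The base-composition measure averaged −0.766 and −0.516 with ABBV-744 alone and 0.722 and 0.473 with IFNγ added, beside −0.213 in DMSO and −0.382 with IFNγ. With the GC correction, CDK6 differed by 0.59 and 0.53 (adjusted p = 0.000205 and 0.000133), and no other member in this paragraph passed. With that correction 21.6% and 16.7% of all genes tested differed at 50 and 500 nM, so a call such as that of CDK6 was common. Groups of 3 libraries are too small for the test of single outlying libraries.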

How the results depend on the processing

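Counts of changed members moved by over 1.5 times as follows. ABBV-744 at 50 nM against DMSO had 1 instead of 2 by DESeq2, with all 24 libraries in the fit, and with the GC correction plus the replicate block. At 500 nM there was 1 instead of 3 by DESeq2 and with the replicate block, and 0 with all 24 libraries. The GC correction, alone or with the block, gave 2 instead of 4 for IFNγ + ABBV-744 50 nM against IFNγ, 3 instead of 5 for 500 nM, 3 instead of 5 for ABBV-075 against ABBV-744, 1 instead of 6 for the 50 nM difference with IFNγ and 2 instead of 5 for the 500 nM one. The 50 nM difference had 3 with library size only. The CDKN1A value in it changed sign, to 0.07, with the correction alone or with the block. Member values that did not pass were refitted under the other settings. Of the 1313 refits that did not pass either, 107 had the opposite sign.

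Leaving out 1 library at a time gave 2 to 7 changed members for ABBV-075, 0 to 2 and 0 to 3 for ABBV-744 at 50 and 500 nM, and 0 for IFNγ, each against DMSO. Against IFNγ it gave 6 to 7, 4 to 6 and 4 to 6 for ABBV-075 and for 50 and 500 nM ABBV-744. The compounds differed in 2 to 7 members, or 4 to 6 with IFNγ, and the doses in 0. The difference with IFNγ gave 0 for ABBV-075, 5 to 6 at 50 nM and 3 to 5 at 500 nM. The share of all genes called was not recorded for these fits, so whether members lost calls more often than other genes was not tested.

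Same-numbered replicates did not pair fully in any comparison: the correlation of their deviations from the group means ran from −0.18 to 0.34, and in no comparison did each library correlate best with its own number. Between the 2 doses of ABBV-744 without IFNγ the correlations were all positive, at 0.25, 0.33 and 0.06, so some pairing there is possible. They were also all positive, though smaller, for IFNγ + ABBV-075 against IFNγ (0.17, 0.01 and 0.16) and between the doses with IFNγ (0.03, 0.01 and 0.08). With the replicate block, ABBV-075 against DMSO kept a count of 6, and CDKN1A and E2F1 at 500 nM ABBV-744 had adjusted p of 0.0531 and 0.0501. The block also ended the call of CCND1 between the compounds (adjusted p = 0.054) and added CCND3 for IFNγ + ABBV-075 (0.34, adjusted p = 0.0416) and CCND1 for IFNγ + ABBV-744 500 nM (−0.19, adjusted p = 0.0334), both against IFNγ. It changed no other member's call. Scaling by library size only moved the median of all genes by −0.1 (50 nM ABBV-744 against DMSO), −0.12 (between compounds with IFNγ) and 0.19 (50 nM difference with IFNγ). With that scaling the share of called genes that were higher went from 46.6% to 25.4% and from 48.9% to 30.8% for 50 and 500 nM ABBV-744 against DMSO, from 79.9% to 55.1% for IFNγ, from 49.6% to 29.1% between compounds with IFNγ, from 0% to 33.3% and from 82.9% to 45.2% between doses without and with IFNγ, and from 48.5% to 66.1% and 55.3% to 67.7% for the 50 and 500 nM differences (37.4% and 43% with the GC correction). Over all genes, the GC correction changed the calls from 5905 to 2479 and from 3827 to 1912 for those differences, from 5766 to 3737 for IFNγ + ABBV-744 50 nM against IFNγ and from 2102 to 1241 for 50 nM against DMSO, and with the block as well to 2415, 1812, 3640 and 899. DESeq2 gave 1139 for the latter, and 982 instead of 1700 at 500 nM. Between doses there were 3 calls, and 5 by DESeq2, 13 without the filter, 9 with all 24 libraries, 17 with the GC correction, 320 with the replicate block and 127 with both. Between doses with IFNγ there were 187, and 88 by DESeq2, 2 with all 24 libraries and 114 with the GC correction. The ABBV-075 difference had 4, and 12 by DESeq2, 45 without the filter, 11 with the GC correction and 23 with the block added. Members with few reads per library, CCNE2 (11 to 72), CDKN1B (32 to 66) and CCND3 (44 to 104), have wide intervals, and CCND2 (0 to 6) could not be tested.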
